A study of Mus musculus with 6 samples.

Results

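The 9 genes described here encode feedback inhibitors of the ERK MAP kinase pathway: the dual-specificity phosphatases Dusp1, Dusp4, Dusp5 and Dusp6, the Sprouty genes Spry1, Spry2 and Spry4, and the Sprouty-related genes Spred1 and Spred2. They were chosen by symbol, each matched 1 Ensembl gene ID, and they make up 9 of the 24938 genes listed in each library. All 9 passed the filter on low values (above 1 FPKM in at least 3 libraries) and are among the 12222 genes tested. FPKM is the read count per kilobase of gene, scaled to the library by the authors.

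RNA was sequenced from the established mouse fibroblast line NIH3T3, which derives from embryos. The control group holds 3 libraries from cells labelled wild type. The other group holds 3 libraries from the same line, here overexpressing the circular RNA F-CircAE. This RNA is related to AML1-ETO, the leukaemia fusion that joins RUNX1, a transcription factor gene, to RUNX1T1. The comparison asks how these transcripts differ between circular RNA overexpression and wild type cells. The sample titles begin with V in the control group and with C in the other, letters that the labels do not define. No other allele, agent or time is named, and whether the control cells carried a vector is not stated. Separate cultures are not stated for the libraries of a group, so the p-values reflect the spread among these libraries alone, and that spread may be technical.

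Growth factor receptors activate Ras, which acts through the Raf and MEK kinases on ERK. Active ERK raises the transcription of its own inhibitors, so their transcripts are widely read as a record of recent pathway activity, and serum-stimulated fibroblasts are a classical setting for this feedback. The Dusp proteins remove the activating phosphates from MAP kinases, Sprouty proteins act between the receptor and Raf, and Spred proteins bring the Ras inhibitor neurofibromin to the membrane.

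Recovered read totals ran from 16969814 to 21843803 per library. Control replicates 1 and 2 differed far less than any other pair of libraries. The chi-square per gene, which counting error alone puts at 1, was 1.46 between them and between 5.15 and 25.1 in the other 14 pairs. The median absolute difference over the 9 genes was 0.02 on the log2(FPKM + 1) scale between control replicates 1 and 2, against 0.39 between control replicates 1 and 3 and 0.40 between control replicates 2 and 3. For all tested genes these medians were 0.05, 0.14 and 0.14. Standard errors and p-values that count both as separate samples may therefore be too small. Of 10 fibroblast markers 9 were tested, led by Col1a1, Vim and Col1a2, while Postn stayed between 0.03 and 0.16 FPKM. Among 4 matched blood and immune markers, Ptprc and Itgam reached at most 0.0353 FPKM in any library. Cd68, a lysosomal protein abundant in macrophages, ran from 4.32 to 6.34 FPKM. The list summed to 4.35 to 5.98 FPKM in control and 4.57 to 6.403 FPKM with overexpression. Of 3 matched epithelial markers, Krt18 was at or below 0.070 FPKM. Krt8 ran from 0.318 to 0.986 FPKM and Cdh1, E-cadherin, from 2.19 to 2.82 FPKM. The 3 matched endothelial markers, Cdh5, Pecam1 and Tek, were at or below 0.933 FPKM.

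Promoter sequences of 7 of the 9 genes, taken from the RefSeq table (GRCm38.p6) and matched by symbol, were searched. Those of Dusp4 and Spry4 were not searched. The 250 bases before each start site were searched on both strands for 6 motifs. They were the cyclic AMP response element (CRE), the CArG box of serum response factor and the SP1, ETS, AP-1 and TATA motifs, of which the CArG box was added after the sequences had been seen. The 3 windows below include Dusp1 and Dusp5 because they held the 2 motifs that were rarest among all promoters of the table. Dusp6 is shown as a window with none of the 6, as was also the case for Spry2. They are given 5′ to 3′ in the direction of the gene, and capitals mark the motif matches, none of which overlap. Dusp1 is chr17:26508473-26508722 on the minus strand, Dusp5 is chr19:53528895-53529144 on the plus strand, and Dusp6 is chr10:99262981-99263230 on the plus strand.

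Dusp1: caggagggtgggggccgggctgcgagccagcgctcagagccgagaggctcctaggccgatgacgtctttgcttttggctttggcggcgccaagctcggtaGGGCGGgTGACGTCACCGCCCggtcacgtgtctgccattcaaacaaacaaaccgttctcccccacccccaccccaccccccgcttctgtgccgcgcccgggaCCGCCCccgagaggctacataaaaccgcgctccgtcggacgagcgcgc
Dusp5: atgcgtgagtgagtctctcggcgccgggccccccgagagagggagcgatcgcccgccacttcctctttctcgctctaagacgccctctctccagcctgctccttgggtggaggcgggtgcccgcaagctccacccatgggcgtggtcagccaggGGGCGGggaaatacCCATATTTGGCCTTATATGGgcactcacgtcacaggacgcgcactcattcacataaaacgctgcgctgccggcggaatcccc
Dusp6: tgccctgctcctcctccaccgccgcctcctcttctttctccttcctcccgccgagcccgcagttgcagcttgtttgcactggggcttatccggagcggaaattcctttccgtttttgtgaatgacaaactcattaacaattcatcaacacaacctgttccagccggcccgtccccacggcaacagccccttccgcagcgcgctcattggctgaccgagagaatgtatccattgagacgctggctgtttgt

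The Dusp1 window held 1 CRE, searched as TGACGTCA, beginning 143 bases before the start site, with SP1 matches at 150, 135 and 48 bases. A CRE was found in 1.55% of the 32851 promoters in the table. The Dusp5 window held 2 adjacent CArG boxes, beginning 82 and 72 bases before the start site, and an SP1 match at 96 bases. A CArG box was found in 1.47% of all promoters. SP1 matches, searched as GGGCGG, were in 5 of the 7 windows, against 32.7% of all promoters. The 7 windows held 56.0 to 70.8% G and C, against a median of 52.4% over all promoters. The part of base content in the SP1 count was not tested. No window held the ETS letters CCGGAA, which were found in 12.03% of all promoters. The AP-1 letters TGANTCA, found in 6.75%, were absent from all 7 windows. So were the TATA letters TATAAA, found in 12.4%. These matches are descriptions of letters and not binding sites.

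Levels differed widely between the genes, on the FPKM scale, which is per length. Dusp1 was the most abundant, at a mean of 64.1 FPKM over the 6 libraries. Dusp6 followed at 37.97, Spred1 at 29.2, Spred2 at 22.6 and Spry2 at 20.5 FPKM. Dusp4 at 9.14, Dusp5 at 7.06, Spry1 at 3.27 and Spry4 at 1.88 FPKM were the least abundant. Among neighbours in this order, the library ranges overlapped between Dusp6 and Spred1, between Spred2 and Spry2, and between Dusp4 and Dusp5. Dusp6 nevertheless exceeded Spred1 in all 6 libraries, whereas Spred2 exceeded Spry2 in 5 and Dusp4 exceeded Dusp5 in 4 of 6.

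**Figure D1:**
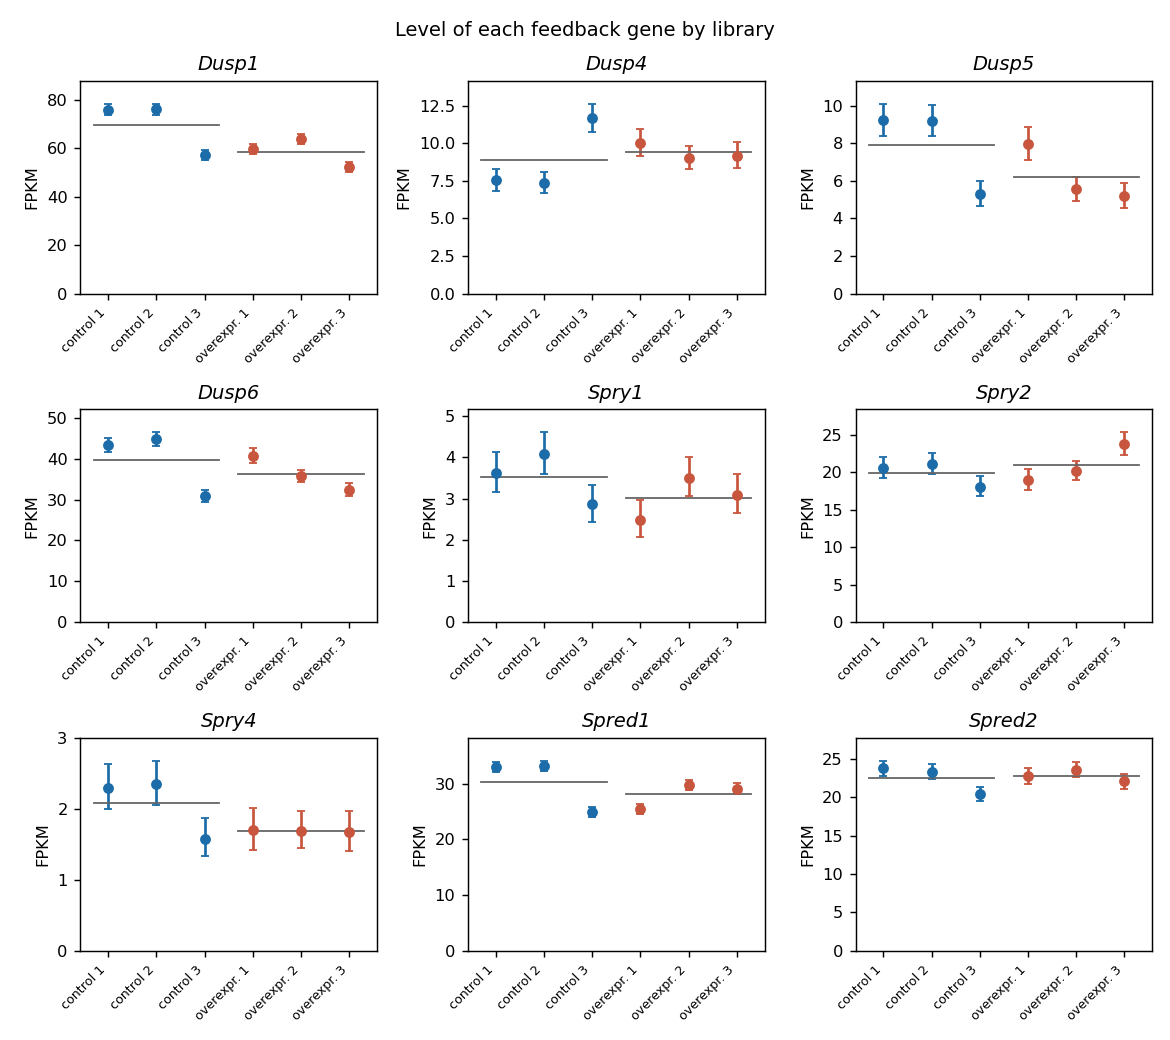
FPKM (y axis, from 0) of each of the 9 genes in each library (x axis); points are libraries, blue for control and red for overexpression, error bars are exact 95% Poisson intervals of the recovered reads, and grey lines are group means. Control replicate 3 lies below both other controls for every gene but Dusp4, where it is the highest library.

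None of the 9 genes differed between the groups after adjustment. The smallest adjusted p among them was 0.842, that of Dusp1 (limma, Benjamini-Hochberg over all tested genes), and none had an unadjusted p below 0.05. Of all tested genes, 0% passed at an adjusted p of 0.05 and 5.17% had an unadjusted p below 0.05. In none of the 9 did all libraries of one group lie above all libraries of the other, against 11.5% of tested genes. Estimates were below 0, that is lower with overexpression, for 6 of the 9, with a median log2 fold change of -0.11; over all tested genes 46.8% were below 0 and the median was 0.01.

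Dusp1 encodes an inducible nuclear phosphatase that acts on p38 and JNK as well as ERK (ENSMUSG00000024190, chromosome 17, 26505590 to 26562128, GENCODE M21 on mm10). Control replicates 1, 2 and 3 held 75.9, 76.0 and 57.2 FPKM, and overexpression replicates 1, 2 and 3 held 59.6, 63.9 and 52.1 FPKM. Control replicates 1 and 2 were the highest libraries, and control replicate 3 lay inside the range of the overexpression libraries. Group means were 69.7 ± 10.8 and 58.5 ± 5.94 FPKM (SD, n = 3). The log2 fold change of -0.24 had a standard error of 0.13 and a 95% interval of -0.55 to 0.07 (limma adjusted p = 0.842). Exons of Ergic1 on the other strand overlap it by 11 bases, and use of strand in the counting is not given in the sources used here.

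Dusp6 encodes the cytoplasmic phosphatase that is selective for ERK (ENSMUSG00000019960, chromosome 10, 99263231 to 99267489). Control replicates stood at 43.3, 44.8 and 30.8 FPKM and overexpression replicates at 40.7, 35.8 and 32.5 FPKM. Control replicate 3 was the lowest of the 6, so the control group spanned all overexpression values. Group means were 39.6 ± 7.70 and 36.3 ± 4.14 FPKM (SD, n = 3), with a log2 fold change of -0.11, a standard error of 0.15 and an interval of -0.47 to 0.25 (limma adjusted p = 0.894).

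Dusp5 encodes a nuclear phosphatase that binds and inactivates ERK (ENSMUSG00000034765, chromosome 19, 53529109 to 53542431). It showed the widest spread of the 9, with 9.23, 9.16 and 5.28 FPKM in the controls and 7.95, 5.56 and 5.17 FPKM with overexpression. The highest library exceeded the lowest 1.78-fold, and 90.8% of tested genes had a smaller range on the log2(FPKM + 1) scale. Both groups held high and low libraries: control replicate 3 was near overexpression replicates 2 and 3, and overexpression replicate 1 was nearest to control replicates 1 and 2. Group means were 7.89 ± 2.26 and 6.23 ± 1.504 FPKM (SD, n = 3), a log2 fold change of -0.28 with an interval of -0.82 to 0.26 (limma adjusted p = 0.850). An annotated antisense gene overlaps 547 bases of its exons, and reads of the pair cannot be told apart without strand.

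Dusp4 encodes a nuclear phosphatase of ERK, p38 and JNK (ENSMUSG00000031530, chromosome 8, 34807297 to 34819894) and ran opposite to the others within the control group. It had 7.54, 7.38 and 11.7 FPKM in the controls and 10.02, 9.04 and 9.18 FPKM with overexpression. Control replicates 1 and 2 were the lowest libraries and control replicate 3 the highest, with the overexpression libraries between. Group means were 8.86 ± 2.43 and 9.42 ± 0.530 FPKM (SD, n = 3), a log2 fold change of 0.10 with an interval of -0.27 to 0.48 (limma adjusted p = 0.899).

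Among the Sprouty genes, Spry4, an inhibitor of receptor signalling to Ras (ENSMUSG00000024427, chromosome 18, 38586247 to 38601415), had 2.30, 2.36 and 1.58 FPKM in the controls and 1.70, 1.69 and 1.67 FPKM with overexpression. The 3 overexpression libraries were nearly equal, with a SD of 0.0157 FPKM, and lay between control replicate 3 and the other controls. These values rest on few reads, 216, 231 and 139 in the controls and 132, 167 and 143 with overexpression. Counting error alone would spread libraries of such depth more widely than that SD, since the 95% Poisson interval of overexpression replicate 1 ran from 1.42 to 2.02 FPKM. Group means were 2.08 ± 0.432 and 1.69 ± 0.0157 FPKM (SD, n = 3), a log2 fold change of -0.19 with an interval of -0.48 to 0.10 (limma adjusted p = 0.843).

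Spry1, an inhibitor of FGF and GDNF receptor signalling (ENSMUSG00000037211, chromosome 3, 37639947 to 37644598), had 3.62, 4.08 and 2.86 FPKM in the controls and 2.48, 3.50 and 3.10 FPKM with overexpression. Overexpression replicate 1 was the lowest library here, and the groups overlapped through control replicate 3. The log2 fold change was -0.16 with an interval of -0.49 to 0.16 (limma adjusted p = 0.850). Exons of Gm42922 on the other strand overlap 710 bases of Spry1, so part of its reads is uncertain without strand.

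Spry2, which acts on several receptor tyrosine kinases (ENSMUSG00000022114, chromosome 14, 105891947 to 105896819), had 20.6, 21.2 and 18.1 FPKM in the controls and 19.0, 20.2 and 23.8 FPKM with overexpression. It was the only member with its highest library in the overexpression group, overexpression replicate 3. Group means were 19.96 ± 1.63 and 20.999 ± 2.48 FPKM (SD, n = 3), with a log2 fold change of 0.07 and an interval of -0.17 to 0.30 (limma adjusted p = 0.897). Summed over the 3 Sprouty genes, the level was 25.6 ± 2.66 FPKM for control libraries and 25.7 ± 2.69 FPKM for overexpression libraries (SD, n = 3).

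Spred1 (ENSMUSG00000027351, chromosome 2, 117121374 to 117182279), which recruits neurofibromin, had 33.04, 33.2 and 24.97 FPKM in the controls and 25.4, 29.7 and 29.1 FPKM with overexpression. Control replicate 3 and overexpression replicate 1 were the lowest libraries, nearly level with each other. The log2 fold change was -0.10 with an interval of -0.39 to 0.19 (limma adjusted p = 0.882). Its close relative Spred2 (ENSMUSG00000045671, chromosome 11, 19924375 to 20024026) had 23.8, 23.3 and 20.4 FPKM in the controls and 22.8, 23.6 and 22.1 FPKM with overexpression. Spred2 was the steadiest of the 9, with the highest library 1.17-fold above the lowest, and 26.8% of tested genes had a smaller range. Its log2 fold change was 0.02 with an interval of -0.15 to 0.19 (limma adjusted p = 0.957). For these 9 genes the intervals on the log2(FPKM + 1) scale all included 0, and all excluded a 2-fold change in either direction.

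**Figure D2:**
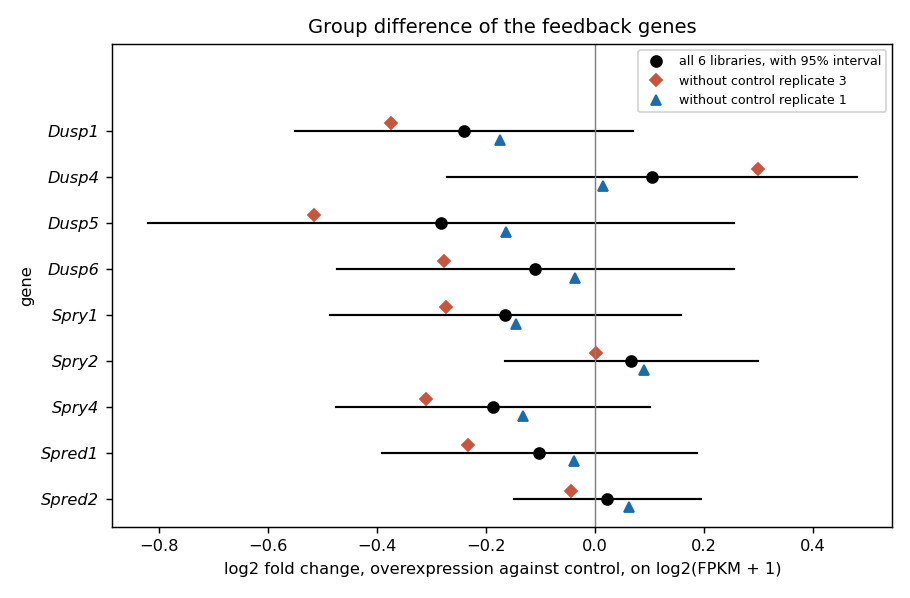
Log2 fold change of each gene, overexpression against control (x axis), with all 6 libraries (black point, line for the 95% interval), without control replicate 3 (red diamond) and without control replicate 1 (blue triangle). Without control replicate 3 the estimates of Dusp1, Dusp5, Dusp6, Spry1, Spry4, Spred1 and Dusp4 lie further from 0, and for Spred2 the sign changes.

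The control SD exceeded the difference between the group means for 8 of the 9 genes, all but Dusp1. The share of all tested genes for which this holds was not computed. Control replicate 3 lay below both other controls for 8 of the 9 (41.2% of tested genes did) and was the lowest of all 6 libraries for 5, namely Dusp6, Spry2, Spry4, Spred1 and Spred2 (19.2% of tested genes). Relative to the mean of control replicates 1 and 2, control replicate 3 held 0.574 of Dusp5, 0.679 of Spry4, 0.699 of Dusp6, 0.743 of Spry1, 0.753 of Dusp1 and 0.754 of Spred1, but 1.56 times the level of Dusp4. The overexpression mean on the same base was 0.677 for Dusp5, 0.724 for Spry4, 0.824 for Dusp6, 0.787 for Spry1, 0.771 for Dusp1, 0.848 for Spred1 and 1.26 for Dusp4. For these genes control replicate 3 thus differed from the other controls in the direction of the overexpression mean and by more. So it did for Spred2, at 0.865 against 0.969. For Spry2 it did not, at 0.867 against 1.005. The exact 95% Poisson intervals of the recovered reads did not overlap between control replicates 1 and 3 for 7 of the 9 genes and between control replicates 2 and 3 for all 9, while they overlapped for all 9 between control replicates 1 and 2. These intervals cover counting error only. The share of all tested genes with separate intervals was not computed, so these counts cannot show a feature particular to the 9. Over all genes, too, the chi-square per gene was far lower between control replicates 1 and 2 than between either and control replicate 3.

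Without control replicate 3 the groups did not overlap in 7 of the 9 genes, where 39.9% of tested genes also did not. Lower with overexpression in that comparison were Dusp1, Dusp5, Dusp6, Spry1, Spry4 and Spred1, and higher was Dusp4. None passed after adjustment (smallest limma adjusted p = 0.210, for Dusp4), where 0.0166% of tested genes passed, and 6 of the 9 had an unadjusted p below 0.05, against 15.4% of tested genes. The log2 fold changes were then -0.52 for Dusp5, -0.37 for Dusp1, -0.31 for Spry4, -0.28 for Dusp6, -0.27 for Spry1, -0.23 for Spred1 and 0.30 for Dusp4. The remaining controls are the near-identical pair, so the spread in that fit may be too small. Leaving out either of the other controls moved all 7 of these estimates toward 0. Without control replicate 2 they were -0.17 for Dusp5, -0.17 for Dusp1, -0.12 for Spry4, -0.014 for Dusp6, -0.076 for Spry1, -0.035 for Spred1 and 0.00047 for Dusp4. Without control replicate 1 they ran from -0.17 for Dusp1 to 0.014 for Dusp4, with Dusp6 at -0.037 and Spred1 at -0.038. In neither case did the groups separate for any of the 9, and the share of tested genes that did was not computed for these fits. With all libraries weighted by estimated quality (limma array weights), Dusp5, Spry4, Dusp6 and Dusp1 passed, at adjusted p = 0.023, 0.031, 0.038 and 0.042, where 18.3% of tested genes passed. The weights were 2.16, 2.57 and 0.236 for control replicates 1, 2 and 3 and 0.278, 4.64 and 0.593 for the overexpression replicates. That fit thus rests mostly on the near-identical controls and overexpression replicate 2. With control replicates 1 and 2 averaged to 1 library, the same weighting gave 0 of the 9 (smallest limma adjusted p = 0.916).

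**Figure D3:**
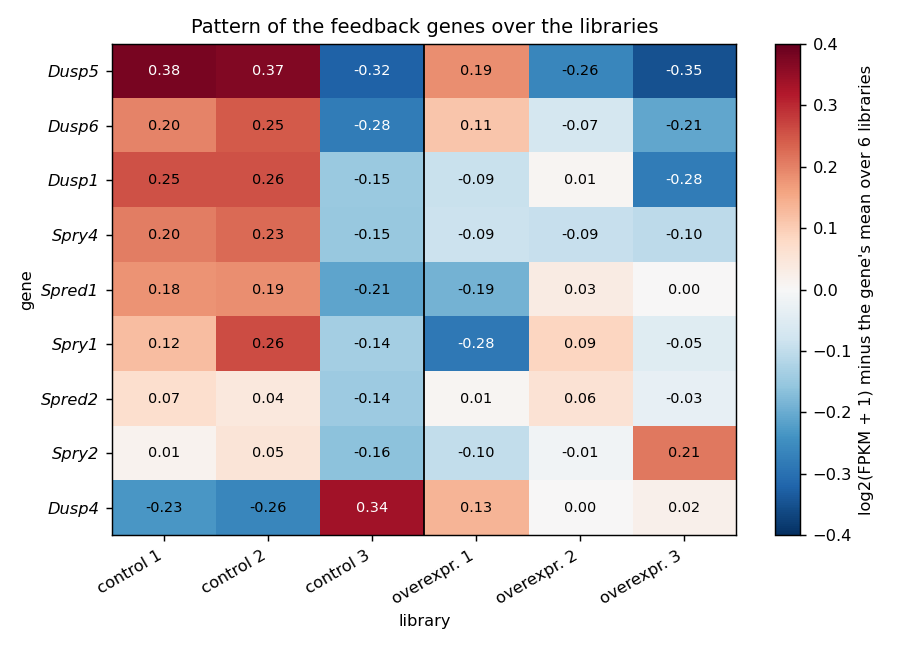
Log2(FPKM + 1) of each gene (rows) in each library (columns), minus the gene's mean over the 6 libraries; red is above and blue below that mean, and the vertical line separates the groups. Dusp5 runs from 0.38 in control replicate 1 to -0.35 in overexpression replicate 3, and Dusp4 from -0.26 in control replicate 2 to 0.34 in control replicate 3; both lie above their means in overexpression replicate 1, at 0.19 and 0.13.

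To describe which genes followed each other, the 6 libraries were taken as 15 pairs and the pairs that 2 genes put in the same order were counted. Dusp6 and Spry4 ordered all 15 pairs alike, although their mean levels were 37.97 and 1.88 FPKM. Of the other tested genes, 0.385% ordered all 15 pairs as Dusp6 did. The Spry4 order among control replicate 3 and the overexpression libraries rested on 1.58, 1.70, 1.69 and 1.67 FPKM. The exact Poisson intervals of these libraries overlapped for Spry4, as did those of control replicates 1 and 2. Counting error alone could thus reorder these pairs. Spry1 and Spred1 ordered 14 pairs alike. Dusp1, Dusp5, Dusp6 and Spry4 shared at least 13 pairs in every combination. Across all 36 combinations the median was 12 pairs, while between each of the 9 and all tested genes it was 7 or 8. Across the 28 combinations without Dusp4, left out after its values were seen, the median was also 12. Spry2 was the loosest of these 8, sharing 8 pairs with Dusp5 and 12 with Spred1.

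Dusp4 stood apart, with a median of 2 pairs shared with the other 8 genes. It shared 0 of 15 with Spred1, so that each pair of libraries was reversed, and 4 with Dusp5. With control replicates 1 and 2 averaged, which leaves 10 pairs, Dusp6 and Spry4 still shared 10, and Spred1 and Dusp4 shared 0. The Spry4 order among control replicate 3 and the overexpression libraries stays within counting error here too. The median was then 7 over all 36 combinations and 8 without Dusp4, against 5 between each of the 9 and all tested genes. The libraries are the same for every gene and few in number, so these counts describe them and carry no p-value.

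**Figure D4:**
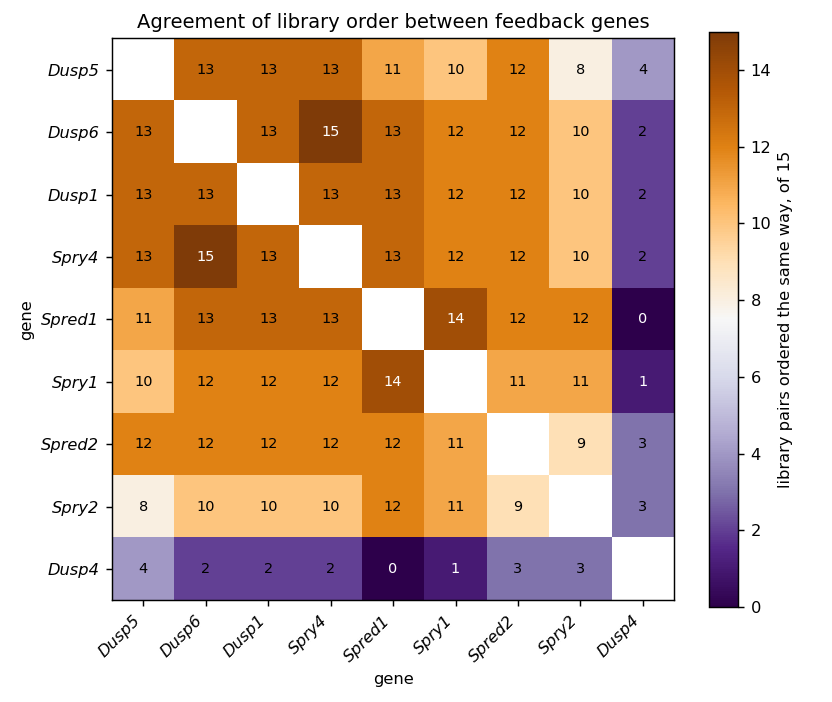
Number of the 15 library pairs that 2 genes order the same way (colour and digits), for each combination of the 9 genes on both axes. Dusp5, Dusp6, Dusp1 and Spry4 share 13 to 15 pairs with each other, and Dusp4 shares 0 to 4 with any other gene.

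The other protein-coding gene nearest to each member was picked by the root mean square difference of centred log2(FPKM + 1) over the 6 libraries. Each is the closest of many tested genes over few libraries, so a small difference comes with the selection. The nearest to Dusp5 was Ampd3, which encodes an AMP deaminase, at a difference of 0.02, with 7.66, 7.81 and 4.32 FPKM in the controls and 6.39, 4.49 and 4.15 with overexpression. The nearest to Dusp4 was Mars, the cytosolic methionyl-tRNA synthetase, at 0.03, with 27.9, 27.1 and 43.7 FPKM in the controls and 37.1, 32.9 and 33.9 with overexpression. Adamts7, a secreted metalloprotease, was nearest to Dusp6 at 0.04, and Dmpk, the myotonic dystrophy protein kinase gene, was nearest to Dusp1 at 0.05. Col6a2, a collagen VI chain, was nearest to Spred1 at 0.02, and Cdc42ep1, an effector of the GTPase CDC42, to Spry4 at 0.03. Scai was nearest to Spred2, Gorasp1 to Spry2 and 5730596B20Rik to Spry1, at 0.02, 0.02 and 0.03. The mean pattern of the 9 genes was matched most closely by Sox9, Peak1, Phf2, Arsk and Fmnl2, at differences of 0.01 to 0.03. Sox9, a transcription factor of cartilage, had 33.6, 34.0 and 27.6 FPKM in the controls and 29.7, 29.2 and 28.8 with overexpression.

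Fibroblast marker genes also differed between the libraries. The mean centred log2(FPKM + 1) of the 9 tested markers stood at 0.31, 0.26 and -0.22 for the controls in order of replicate number, at -0.33, -0.02 and 0.00 for the overexpression replicates, and 7 of the 9 lay lower in control replicate 3 than in the other controls. Their summed level ran from 1938 to 2456 FPKM in control and from 1738 to 2142 FPKM with overexpression. Col1a1, the alpha 1 chain of collagen I, had 607, 602 and 492 FPKM in the controls and 444, 575 and 525 with overexpression. In bulk RNA, fewer cells of a kind and less RNA per cell cannot be told apart. Vim, which encodes vimentin, went the other way, with 563, 560 and 606 FPKM in the controls and 567, 601 and 665 with overexpression, as did S100a4, with 2.34, 2.08 and 3.22 FPKM in the controls and 2.53, 2.23 and 3.58 with overexpression. The mean of the 9 feedback genes on the same centred scale was 0.13, 0.15 and -0.14 for the controls and -0.03, -0.03 and -0.09 for the overexpression replicates, so overexpression replicate 1 was the lowest library for the marker list and control replicate 3 for the feedback genes. The part of this shift in the values of the feedback genes was not tested.

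Other genes of the pathway were described by lists, and 0 genes of any list passed the limma test in either direction, while 2, Dusp7 and Elk4, had an unadjusted p below 0.05. Of the 6 other MAP kinase phosphatases 5 were tested, 4 with estimates above 0 and a median log2 fold change of 0.10. Dusp7, the closest cytoplasmic relative of Dusp6, had 15.2, 15.01 and 16.3 FPKM in control and 17.6, 18.7 and 18.5 with overexpression, so that the groups did not overlap (log2 fold change 0.22, limma adjusted p = 0.842). Dusp10, a phosphatase of p38 and JNK, had 6.80, 7.70 and 7.61 FPKM in control and 8.77, 7.12 and 8.13 with overexpression, with overlapping groups. Control replicate 3 lay below both other controls for 0 of these 5 phosphatases.

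The 10 tested genes among further feedback inhibitors and family members had a median log2 fold change of -0.03, with 7 below 0. Pebp1, the Raf kinase inhibitor protein, had 169, 170 and 172 FPKM in control and 188, 186 and 176 with overexpression, without overlap (log2 fold change 0.11, limma adjusted p = 0.842). Control replicate 3 lay below both other controls for 9 of the 10. Errfi1, an inhibitor of EGF receptors, was furthest from 0 at -0.52 (limma adjusted p = 0.843). Spred3, the remaining Spred gene, named after its values were seen, had 7.84, 8.03 and 6.05 FPKM in control and 6.18, 6.65 and 6.72 with overexpression, a pattern like that of Spred1. Spry3 was not analysed here.

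All 19 genes of the core cascade, from the adaptors to ERK, were tested, 9 with estimates above 0 and 10 below, with a median of -0.004. Mapk3, which encodes ERK1, had 80.8, 79.8 and 67.0 FPKM in control and 63.0, 78.0 and 81.9 with overexpression, with control replicate 3 and overexpression replicate 1 the lowest. Grb2, the adaptor that couples receptors to Ras activation, stood between 42.1 and 44.1 FPKM in all 6 libraries. The scaffold Ksr1 and the adaptor Gab1 had the smallest p of this list, with log2 fold changes of -0.13 and -0.12 (limma adjusted p = 0.842 each). Control replicate 3 lay below both other controls for 8 of the 19.

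Among 10 tested ERK effectors and substrates the median was 0.004, with 5 estimates on each side of 0. Srf, serum response factor, which binds the CArG box, had 18.8, 19.6 and 13.9 FPKM in control and 17.2, 14.1 and 13.7 with overexpression (log2 fold change -0.20, limma adjusted p = 0.843). These libraries fall in the same high and low sets as those of Dusp5. Of the other tested genes, 3.49% ordered at least 13 of the 15 library pairs as Dusp5 did. A link between Srf and Dusp5 was not tested. Elk4, a partner of SRF, had 8.49, 8.40 and 8.53 FPKM in control and 7.94, 7.47 and 7.04 with overexpression, without overlap (log2 fold change -0.16, limma adjusted p = 0.842).

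Of 15 ERK-responsive transcripts, all tested, 10 had estimates below 0 and the median was -0.07. Egr1, an immediate early transcription factor, had 41.6, 41.2 and 18.7 FPKM in control and 22.3, 26.6 and 23.2 with overexpression (log2 fold change -0.40, limma adjusted p = 0.843). As for Dusp6, Spry4 and Spred1, control replicates 1 and 2 were the highest libraries and control replicate 3 the lowest. Ccnd1, which encodes cyclin D1, ran the other way, with 99.3, 98.0 and 139 FPKM in control and 130, 120 and 113 with overexpression. Junb, an AP-1 factor, had 71.6, 72.9 and 48.4 FPKM in control and 44.0, 61.5 and 59.1 with overexpression. Etv4, an ETS factor induced by FGF signalling, stood between 28.2 and 31.2 FPKM in control and between 27.8 and 28.7 with overexpression. Control replicate 3 lay below both other controls for 9 of the 15. Of 9 tested JNK and p38 kinase genes, control replicate 3 was below both other controls for 2, and the median log2 fold change was -0.01.

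**Figure D5:**
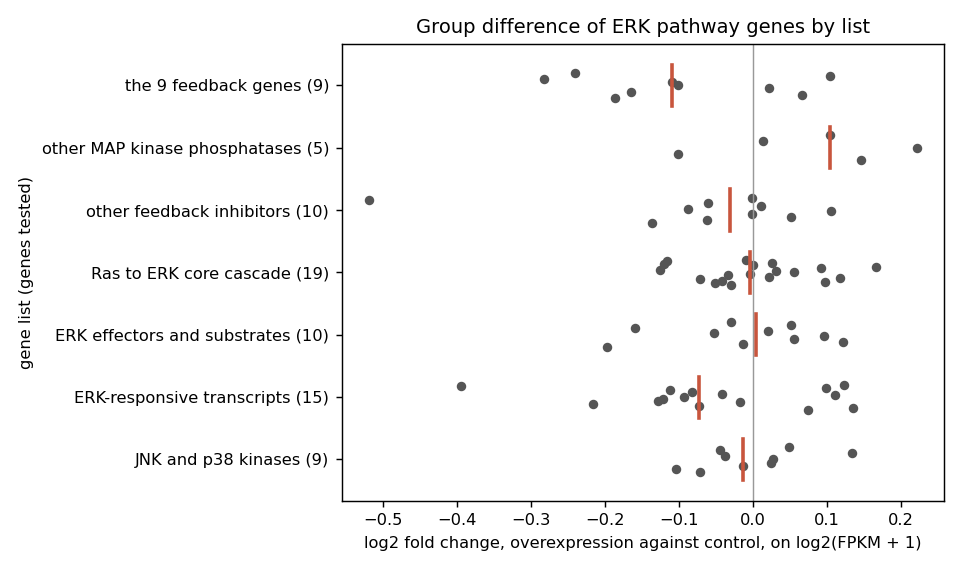
Log2 fold change, overexpression against control (x axis), of each tested gene (points) in 7 lists of ERK pathway genes (y axis, genes tested in parentheses); red bars are list medians. Medians run from -0.11 for the 9 feedback genes to 0.10 for the other MAP kinase phosphatases, and no point passed the test.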

How the data were processed

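RNA-seq libraries of 3 control and 3 overexpressing NIH3T3 samples were analysed, grouped by the labelled genotype. The authors deposited 1 FPKM value per Ensembl gene ID and library, per the file headers. Per the submitters' processing notes the build was mm10; the aligner, counting program and strand setting were not given in the sources used here. Symbols, coordinates and exon-union lengths came from GENCODE M21, and 24816 of 24938 IDs had a symbol.

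Reads were recovered from the FPKM steps. The exon-union length gave whole reads within 0.01 reads plus a relative 1e-08 for 19832 genes (79.5%). For the other 5106 genes the smallest length giving whole reads was used, as for Dusp1, Dusp6, Spry2 and Spry4; there whole reads are no independent check. On simulated data 99.2% of genes were returned exactly. Reads served for depth, counting intervals and an alternative.

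The test was limma 3.58.1 in R 4.3.3, with its trend and robust options, on log2(FPKM + 1), which understates changes of low genes, for genes above 1 FPKM in at least 3 libraries. Adjusted p-values are Benjamini-Hochberg over 12222 genes at a threshold of 0.05. The test was also run on simulated data.

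Members, gene lists and alternatives were chosen with earlier results of these data known. All 9 members were named, with at most the 3 most abundant genes and the 2 of smallest p of each list, and the protein-coding genes nearest in pattern. One gene that this rule names is not reported here.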

Additional observations from a re-analysis of the deposited data

How the results depend on the processing

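No member passed under pseudocounts of 0.1 and 5, no filter or a filter at 5 FPKM (which kept 7 of the 9), rescaling to equal FPKM sums or to the upper quartile, limma-voom on recovered reads, or averaging control replicates 1 and 2. Leaving out each library gave 0 members past the threshold in every case, 0 to 2 genes in all, and 0 to 7 members whose groups did not overlap. The 7 and the 2 came without control replicate 3, where 39.9% of tested genes did not overlap, and 1 gene passed without overexpression replicate 1. That share was not computed for the other libraries left out. Array weights gave 2241 genes and 4 members, with log2 fold changes of -0.26 for Dusp1, -0.59 for Dusp5, -0.28 for Dusp6 and -0.29 for Spry4; when control replicates 1 and 2 were also averaged, an alternative added after seeing the data, both counts were 0. The cause of the difference was not tested.

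Signs changed under some alternatives for Spred2, Spry2, Dusp4, Spry1 and Spred1. Leaving out single libraries moved Spred2 between -0.044 (without control replicate 3) and 0.062 (without control replicate 1), and it was at -0.0017 without overexpression replicate 2. Spred2 was at -0.040 with equal FPKM sums and -0.0072 with upper quartile scaling. Spry2 lay between -0.022 (without overexpression replicate 3) and 0.13 (without overexpression replicate 1), and at -0.017 with array weights. With array weights and averaged controls, Dusp4 was at -0.034, Spry1 at 0.020 and Spred1 at 0.030, against 0.10, -0.16 and -0.10 with all 6 libraries weighted equally. Over all alternatives the smallest adjusted p of a member ran from 0.023 to 0.9999 (limma).

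With the replicate number as a block, 0 genes and 0 members passed (smallest adjusted p of a member 0.921, limma). The deviations of same-numbered libraries had correlations of -0.10, 0.08 and 0.003 across genes. With 3 libraries per group and a near-identical pair of controls, these values cannot decide whether the numbers mark pairs. The block lowered the standard error from 0.13 to 0.080 for Dusp1, from 0.23 to 0.13 for Dusp5 and from 0.15 to 0.097 for Dusp6. It was also lower for Dusp4, Spry1 and Spred2, and higher for Spry2, Spry4 and Spred1. Depth limits Spry4, Spry1, Dusp5 and Dusp4 most.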

Other observations

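Of the 15 ERK-responsive transcripts, 6 were highest of all 6 libraries in overexpression replicate 1 and 3 (Etv4, Junb and Ier2) were lowest there, against 26.2% and 25.04% of all tested genes. Phlda1 and the 5 genes that follow were the 6, picked out after their values were seen. Fos, an immediate early AP-1 subunit, had 5.90, 5.73 and 1.78 FPKM in the controls and 11.4, 3.62 and 1.84 FPKM in overexpression replicates 1, 2 and 3. Fosl1, a later AP-1 subunit, had 38.7, 37.3 and 38.2 FPKM in the controls and 56.1, 27.8 and 28.9 FPKM with overexpression. Epha2, a receptor tyrosine kinase, had 20.1, 20.6 and 21.7 FPKM in the controls and 30.04, 19.5 and 18.9 FPKM with overexpression. Plaur, the urokinase receptor, had 29.7, 30.004 and 37.6 FPKM in the controls and 45.2, 28.8 and 30.1 FPKM with overexpression. Hbegf, an EGF receptor ligand, had 7.62, 7.48 and 7.77 FPKM in the controls and 9.53, 5.93 and 5.82 FPKM with overexpression. Of the 9 feedback genes, 0 were highest of all 6 libraries in overexpression replicate 1, and Spry1 was lowest there. Within the overexpression group alone, Dusp4, Dusp5, Dusp6 and Spry4 were highest in replicate 1 (10.02, 7.95, 40.7 and 1.70 FPKM). Spry1, Spry2 and Spred1 were lowest of that group there (2.48, 19.0 and 25.4 FPKM), and Dusp1 and Spred2 lay between. Some of these differences, such as that of Spry4, lie within counting error. None of these genes differed between the groups after adjustment.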
